A study of Mus musculus with 8 samples.

Results

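The 10 fatty acid oxidation genes Ppara, Ppard, Cpt1a, Cpt2, Acadm, Acadl, Acadvl, Hadha, Hadhb and Etfdh were followed through RNA sequencing of 8 whole mouse aortas. Each was taken by its symbol from a table of 48607 assembled loci, and all 10 were found, at the locus with the most counts where a symbol had more than 1. The aortas came from mice without apolipoprotein E (ApoE-/-), which develop atherosclerosis on a fatty diet, and from mice that also lacked the natriuretic peptide receptor C (NPRC-/-ApoE-/-). Both groups were therefore ApoE-deficient and both were fed a Western diet. The receptor gene Npr3 had been disrupted in the whole body by a CRISPR frameshift in its first exon. The study describes the groups as littermates and its purchased ApoE-/- mice as male and 8 weeks old. It states no sex for the NPRC-/-ApoE-/- mice, and the ages are not in the labels. By their titles 5 libraries were ApoE-/- and 3 were NPRC-/-ApoE-/-. The study's methods give 5 mice of each genotype for the sequencing, so fewer NPRC-/-ApoE-/- libraries are present here.

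The labels of 4 of the 8 libraries contradict each other. The libraries titled ApoE-/- 4 and ApoE-/- 5 carry an NPRC-/-ApoE-/- genotype entry, and those titled NPRC-/-ApoE-/- 1 and 2 carry an ApoE-/- entry. Libraries are named here by their titles, each comparison was made by title and again by genotype entry, and every direction below that rests on the titles holds only for libraries so labelled. Npr3 gave no check of either label: by title its level was 0.62 to 1.69 FPKM in ApoE-/- and 1.13 to 1.39 FPKM in NPRC-/-ApoE-/-, and a frameshift need not remove the RNA. The libraries held 62969165 to 86693276 counts each. Smooth muscle markers were abundant in every library (Acta2 849 to 1982 FPKM), as the tissue label has it, but Ucp1, the uncoupling protein of brown fat, was also high, at 71.8 to 343 FPKM. These are bulk samples, so fewer cells of a type and less RNA per cell cannot be told apart. The labels do not say whether each library is a separate animal, so p-values measure only the spread between these 8 libraries.

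Fatty acids are burned in mitochondria in repeated rounds that each shorten the chain. Cpt1a on the outer membrane and Cpt2 on the inner membrane carry long chains inside as carnitine esters, the acyl-CoA dehydrogenases take out the first electrons, and the trifunctional protein of Hadha and Hadhb completes the round on long chains. The electrons pass through the flavoprotein dehydrogenase Etfdh to ubiquinone, and the nuclear receptors Ppara and Ppard switch on many genes of the route. Brown fat, heart and skeletal muscle are known for high levels of these genes. The comparison asks whether their RNA differed in aortas without the receptor.

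None of the 10 genes was called different between the genotype groups by title. In the libraries titled NPRC-/-ApoE-/- 8 of them had higher fitted means and 2 lower, with a median log2 fold change of 0.24 against -0.01 over all 20506 loci tested. With edgeR's quasi-likelihood test and Benjamini-Hochberg adjustment 0 of the 10 had an adjusted p under 0.05, as did 0% of all loci, and the smallest adjusted p of the 10 was 0.483, for Cpt1a. At an unadjusted p under 0.05 the 10 again gave 0 genes in either direction, beside 6.51% of loci higher and 7.13% lower. DESeq2 and limma on log2(FPKM + 1) also called 0 of the 10 after adjustment, out of 627 and 2 of all 20506 loci. The 2 titled groups overlapped for all 10 genes, whereas 7.41% of all loci had groups that did not overlap. Their spread from aorta to aorta was between 1.61-fold, for Ppard, and 9.0-fold, for Ppara.

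**Figure D1:**
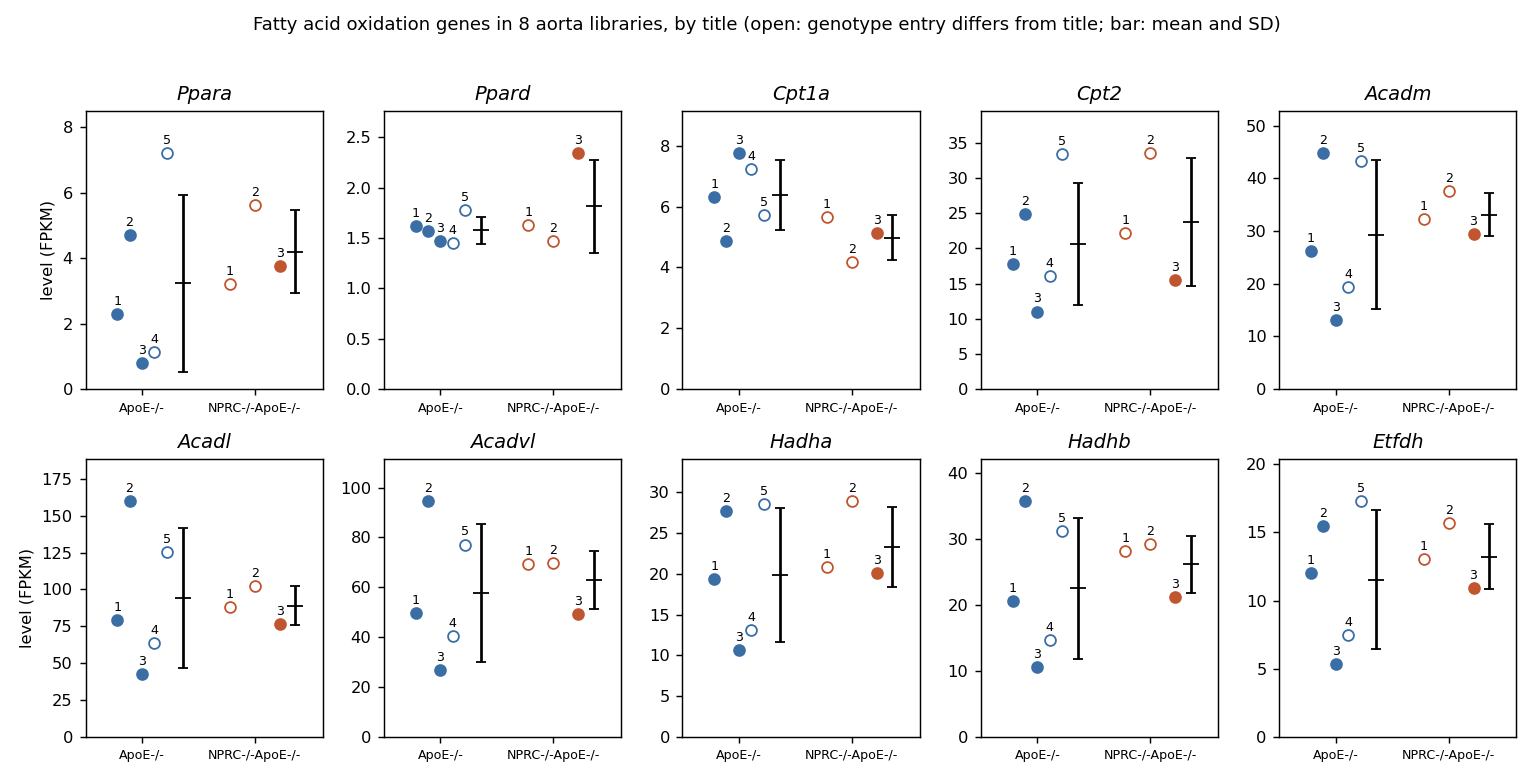
Level of each gene (vertical axis, FPKM, starting at 0) in the 8 aorta libraries by title, with numbers giving the library, open circles marking libraries whose genotype entry differs from the title, and bars giving the mean and SD of the titled group. In 7 of the 10 panels ApoE-/- 3 and ApoE-/- 4 are the lowest points, while in the Cpt1a panel they are the highest, at 7.75 and 7.25 FPKM.

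Levels are given in FPKM, fragments scaled to transcript length and library size as the authors deposited them. The order between genes given here is that of FPKM and rests on the length used for each locus, which was not checked. By counts summed over the 8 libraries the order differed. Hadhb (166662) and Hadha (161268) then stood above Acadl (135926), and Ppara (58492) above Cpt2 (38278). Acadl had the highest mean over the 8 libraries, at 92.2 FPKM ± 36.8 (SD, n = 8), followed by Acadvl at 59.7 ± 21.9 and Acadm at 30.7 ± 11.1. This order of the 3 dehydrogenases, and of Acadm over Hadhb, held in 8 of 8 libraries. Hadhb (23.9 FPKM), Cpt2 (21.8 FPKM) and Hadha (21.2 FPKM) did not separate: Hadhb exceeded Cpt2 in 4 of 8 libraries, and Cpt2 exceeded Hadha in 5 of 8. Etfdh at 12.2 FPKM was below Hadha in 8 of 8 libraries and above Cpt1a, at 5.85 FPKM, in 7 of 8. The nuclear receptors came last, Ppara at 3.59 FPKM ± 2.21 and Ppard at 1.67 FPKM ± 0.294, with Ppara the higher in 6 of 8 libraries. Between 1468 and 27647 counts stood behind each of these values.

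Ppara, the receptor that drives fatty acid oxidation in liver and brown fat, was the most variable of the 10. It stood at 2.30, 4.72, 0.80, 1.14 and 7.20 FPKM in ApoE-/- 1 to 5 and at 3.20, 5.62 and 3.77 FPKM in NPRC-/-ApoE-/- 1 to 3. The titled ApoE-/- libraries alone spanned the whole range, with both the lowest and the highest value, and the NPRC-/-ApoE-/- libraries lay inside it. Its log2 fold change was 0.44 (SE 0.61, 95% interval -0.94 to 1.83, edgeR adjusted p = 0.772), an interval that leaves room for a change in either direction. A second locus of the same symbol on the opposite strand, not used here, ran from 0.36 FPKM in ApoE-/- 3 to 4.05 FPKM in ApoE-/- 5. Whether the counting used strand is not given in the sources used here, so reads of the overlapping loci may be split between them.

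Ppard, a receptor of the same family that is expressed in most tissues, was nearly level. It measured 1.62, 1.57, 1.47, 1.45 and 1.78 FPKM in ApoE-/- 1 to 5, and 1.63, 1.47 and 2.34 FPKM in NPRC-/-ApoE-/- 1 to 3. A single library, NPRC-/-ApoE-/- 3, stood above the rest. The log2 fold change was 0.24 (SE 0.18, 95% interval -0.16 to 0.63, edgeR adjusted p = 0.565), and without that library it was -0.02. Ppard too has a second locus on the opposite strand, at 1.81 to 2.69 FPKM, with the same limit.

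The carnitine shuttle is represented by its 2 palmitoyltransferases. Cpt1a, the liver-type enzyme of the outer membrane whose step controls the pace of the route, was at 6.30, 4.87, 7.75, 7.25 and 5.71 FPKM in ApoE-/- 1 to 5. In NPRC-/-ApoE-/- 1 to 3 it was at 5.66, 4.17 and 5.12 FPKM. ApoE-/- 3 and 4 were highest and NPRC-/-ApoE-/- 2 lowest, and the groups overlapped through ApoE-/- 2. Its log2 fold change of -0.34 (SE 0.21, 95% interval -0.82 to 0.13, edgeR adjusted p = 0.483) had the opposite sign to those of Ppara, Ppard and 6 of the 7 other genes. By genotype entry the sign turned, at 0.09.

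Cpt2, which releases the chain from carnitine inside, measured 17.7, 24.9, 11.0, 16.0 and 33.4 FPKM in ApoE-/- 1 to 5. The NPRC-/-ApoE-/- libraries had 22.1, 33.5 and 15.5 FPKM. The lowest library was again ApoE-/- 3, but NPRC-/-ApoE-/- 3 came next, and the highest values of the groups, in ApoE-/- 5 and NPRC-/-ApoE-/- 2, were nearly equal. The log2 fold change was 0.24 (SE 0.33, 95% interval -0.51 to 0.98, edgeR adjusted p = 0.773) and was -0.07 without NPRC-/-ApoE-/- 2. The level of Cpt1a over that of Cpt2 ranged from 0.124 in NPRC-/-ApoE-/- 2 to 0.703 in ApoE-/- 3, a 5.65-fold span. Cpt1b, the muscle and brown fat form of the outer enzyme, followed Cpt2 rather than Cpt1a, with 7.34 FPKM in ApoE-/- 3 and 28.8 FPKM in NPRC-/-ApoE-/- 2, although its locus also holds Chkb and cannot be separated from it.

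The 3 acyl-CoA dehydrogenases act on very long (Acadvl), long (Acadl) and medium (Acadm) chains. Acadl was at 79.2, 159.9, 42.5, 63.9 and 125 FPKM in ApoE-/- 1 to 5 and at 87.8, 103 and 76.8 FPKM in NPRC-/-ApoE-/- 1 to 3. Acadvl was at 49.8, 94.6, 26.9, 40.4 and 77.2 FPKM, and then at 69.5, 69.8 and 49.3 FPKM. Acadm was at 26.2, 44.7, 13.1, 19.3 and 43.3 FPKM, and then at 32.2, 37.5 and 29.5 FPKM. For each of the 3, the 2 lowest and the 2 highest libraries were all titled ApoE-/-, and the NPRC-/-ApoE-/- libraries sat between them. The log2 fold changes were -0.04 for Acadl (95% interval -0.84 to 0.77), 0.16 for Acadvl (-0.61 to 0.93) and 0.22 for Acadm (-0.55 to 0.99), with edgeR adjusted p = 0.975, 0.856 and 0.801. Acadl, whose difference was the smallest of the 10, turned to 0.23 when ApoE-/- 2, its highest library, was left out.

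The balance between the dehydrogenases was steadier than their levels. In FPKM, Acadl exceeded Acadm 2.60-fold to 3.57-fold and Acadvl 1.26-fold to 1.69-fold, while each gene on its own varied over 3-fold. Of 8 ratios between members, or between a member and Cpt1b, chosen after the levels were seen, these 2 had titled groups that did not overlap. Acadl over Acadm was 3.20 ± 0.265 (SD, n = 5) by title in ApoE-/- and 2.69 ± 0.0741 (n = 3) in NPRC-/-ApoE-/-. Acadl over Acadvl was 1.61 ± 0.0472 (n = 5) against 1.43 ± 0.151 (n = 3). Both had an exact two-sided permutation p = 0.0357, the smallest that 5 against 3 can give, and p = 0.143 after Benjamini-Hochberg adjustment over the 8 ratios. By genotype entry the groups overlapped for both, with exact p = 0.643 and 0.571.

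Hadha carries the hydratase and the long-chain hydroxyacyl-CoA dehydrogenase of the trifunctional protein, and Hadhb its thiolase. Hadha was at 19.3, 27.7, 10.6, 13.1 and 28.6 FPKM in ApoE-/- 1 to 5 and at 20.8, 28.9 and 20.1 FPKM in NPRC-/-ApoE-/- 1 to 3. Hadhb was at 20.5, 35.7, 10.7, 14.6 and 31.1 FPKM, and then at 28.1, 29.2 and 21.2 FPKM. Both were lowest in ApoE-/- 3 and 4. The subunits kept close to each other, with Hadha at 0.740 to 0.997 of the Hadhb level. The log2 fold changes were 0.27 for Hadha (95% interval -0.41 to 0.95) and 0.26 for Hadhb (-0.50 to 1.02), with edgeR adjusted p = 0.711 and 0.759.

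These subunits lie head to head on chromosome 5, and the stretch between them is shown because it lies before both starts. Whether both genes use it was not tested. In RefSeq (GRCm38.p6) Hadha starts at 30154980 on the minus strand and Hadhb at 30155253 on the plus strand, 273 bases apart, so that windows of 250 bases before and 50 after each start share 228 bases. The assembled loci overlap there, from 30155013 to 30155162, and reads in the overlap cannot be assigned without strand. The window of Hadhb, chr5:30155003-30155302 on the plus strand, reads 5′ to 3′ as follows, without capitals because none of the motifs below occurs in it.
Hadhb: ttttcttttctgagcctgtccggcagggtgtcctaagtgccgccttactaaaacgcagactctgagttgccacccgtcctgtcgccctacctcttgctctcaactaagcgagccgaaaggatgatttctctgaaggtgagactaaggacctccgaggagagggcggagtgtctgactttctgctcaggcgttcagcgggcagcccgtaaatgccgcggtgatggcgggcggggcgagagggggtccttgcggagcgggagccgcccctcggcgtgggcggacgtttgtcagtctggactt

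Etfdh, the last step to ubiquinone, measured 12.0, 15.5, 5.34, 7.50 and 17.3 FPKM in ApoE-/- 1 to 5 and 13.0, 15.7 and 11.0 FPKM in NPRC-/-ApoE-/- 1 to 3. It too was lowest in ApoE-/- 3 and 4, and ApoE-/- 5 was highest. Its log2 fold change was 0.24 (SE 0.32, 95% interval -0.48 to 0.97, edgeR adjusted p = 0.761). Relative to Acadm, whose electrons it receives by way of the electron transfer flavoprotein, Etfdh stayed between 0.346 and 0.459.

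**Figure D2:**
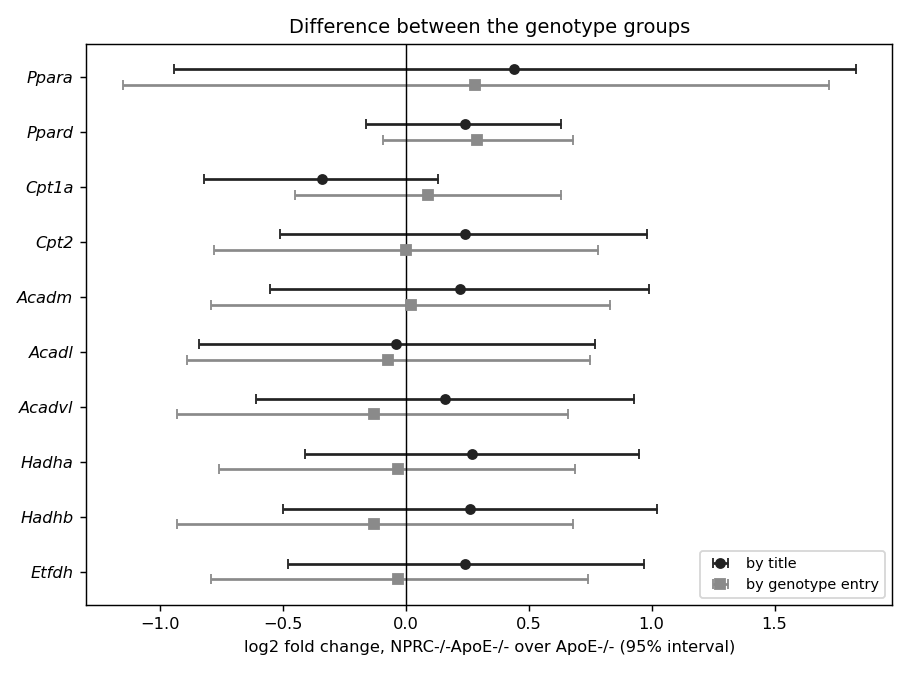
Log2 fold change of NPRC-/-ApoE-/- over ApoE-/- for each gene with its 95% interval, from edgeR, with circles for the grouping by title and squares for that by genotype entry. Every interval includes 0 under both labels, the widest by title being that of Ppara, from -0.94 to 1.83.

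Grouping by genotype entry gave no call either. There 4 genes were higher and 6 lower, the median log2 fold change was -0.01, and every adjusted p from edgeR was 1.0. Again 0 of the 10 had an adjusted p under 0.05, beside 0% of loci, and 0 an unadjusted p under 0.05, beside 1.31% of loci. The groups overlapped for all 10, while 1.20% of loci did not overlap. Ppard was furthest from 0, at 0.29 (SE 0.17, 95% interval -0.09 to 0.68), with the largest value again in NPRC-/-ApoE-/- 3. Title and entry were alike in 3 ApoE-/- libraries and 1 NPRC-/-ApoE-/- library. Between these the difference in log2 CPM was 0.96 for Ppara, 0.68 for Ppard and -0.19 for Cpt1a. For the other 7 it was between -0.04 and 0.33, with no test for a single library. Log2 CPM are counts scaled to the library total adjusted by its TMM factor.

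Ppara and the 7 mitochondrial genes Cpt2, Acadm, Acadl, Acadvl, Hadha, Hadhb and Etfdh moved as a block from aorta to aorta. Summed, the 7 stood at 225, 403, 120.2, 175 and 356 FPKM in ApoE-/- 1 to 5 and at 274, 317 and 223 FPKM in NPRC-/-ApoE-/- 1 to 3. ApoE-/- 3 and 4 were lowest and ApoE-/- 2 and 5 highest, so that the NPRC-/-ApoE-/- libraries fell within the span of the other group. Over the 21 pairs of the 7 genes Pearson's r of log2 CPM was 0.82 to 0.99, with a median of 0.95, and Spearman's rho 0.83 to 1.0, over 8 libraries. For each pair, r was 0.81 to 0.98 without the 2 libraries farthest from the median of the gene listed first above. The libraries left out could therefore differ between pairs. Acadm, Acadl, Acadvl and Hadhb put the 8 libraries in an identical order. Points in these correlations share library, depth and tissue composition, and they are given as a description.

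Ppara followed the 7, with r = 0.87 to 0.98, and Cpt1a ran against them, with r = -0.96 to -0.83 over the same 8 libraries. Without the 2 libraries farthest from the median of the gene named, r was 0.62 to 0.91 for Ppara and -0.85 to -0.57 for Cpt1a. Ppard had r = -0.25 to 0.09 with the 7 genes and -0.04 with Cpt1a. Without the 2 libraries farthest from the median of Ppard these were -0.65 to -0.36 and 0.57. The spread within titled groups was correspondingly wide: the SD of log2 CPM was 1.05 for Ppara and 0.48 to 0.57 for the 7 genes, against 0.31 for Cpt1a and 0.24 for Ppard. Its median was 0.24 over the 6801 loci in the same range of levels and 0.32 over all loci tested.

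**Figure D3:**
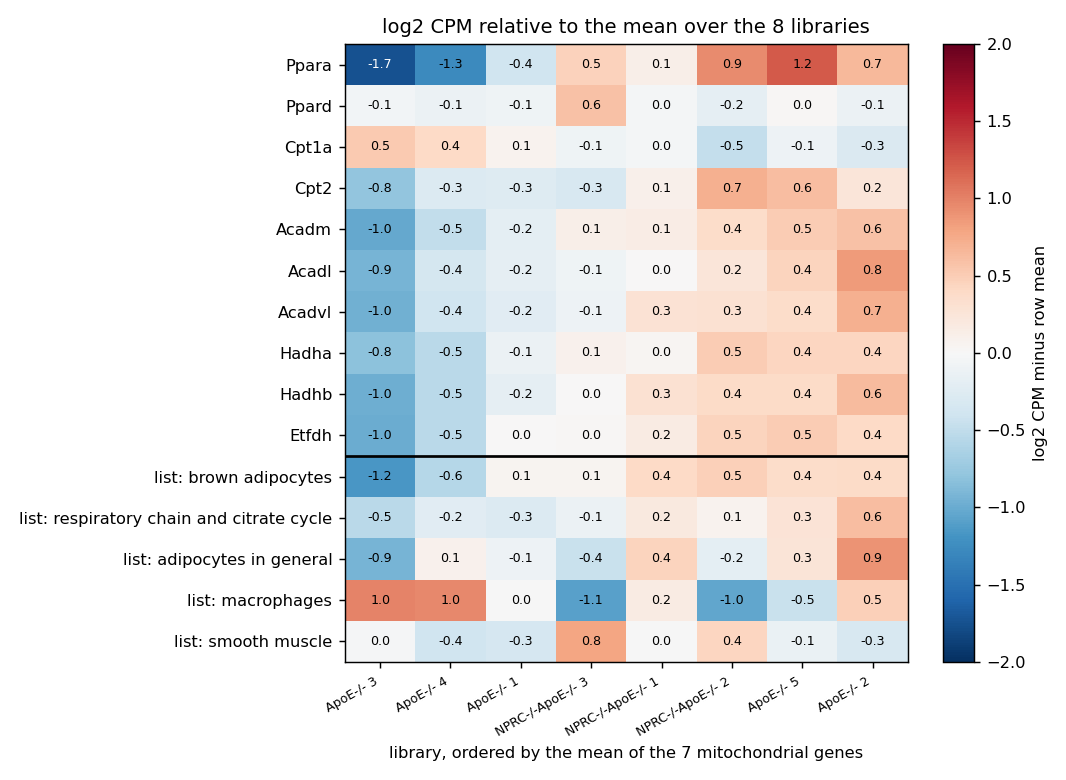
Log2 CPM of each gene, and mean log2 CPM of 5 gene lists below the line, minus the mean over the 8 libraries, with red above and blue below it and libraries ordered by the mean of the 7 mitochondrial genes. The rows of Ppara, the 7 genes and the brown adipocyte list are lowest in ApoE-/- 3 at the left, whereas the rows of Cpt1a and of the macrophage list are high in ApoE-/- 3 and 4.

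Outside the lists, the 5 single-gene loci most like the 10 genes, by Pearson correlation with their mean z-score of log2 CPM over the 8 libraries, were also genes of mitochondrial enzymes and proteins. They were Gpd2 (r = 0.989), the glycerol phosphate dehydrogenase of the inner membrane, Idh3b and Suclg1 (both 0.988), enzymes of the citrate cycle, and Grpel1 and Tmem143 (both 0.982), the first a cofactor of protein import. Gpd2 ran from 10.0 FPKM in ApoE-/- 3 to 35.6 FPKM in ApoE-/- 5. It was not called different by title (log2 fold change 0.32, edgeR adjusted p = 0.724).

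As a list, brown adipocyte markers moved with the 7 genes and Ppara. Summed over the 10 markers they stood at 422, 577, 129.9, 249 and 608 FPKM in ApoE-/- 1 to 5 and at 551, 580.3 and 361 FPKM in NPRC-/-ApoE-/- 1 to 3. The lowest libraries were again ApoE-/- 3 and 4. Ucp1 was the larger part of this sum in every library, and not every marker followed it. Dio2, a deiodinase, was lowest in NPRC-/-ApoE-/- 2, at 3.65 FPKM. Elovl3 was at only 3.92 FPKM in ApoE-/- 2, where the sum of the 7 genes was highest. Of the 10 markers, 8 passed the filter on low values, all 8 were higher by title, 0 had an unadjusted p under 0.05, and the median log2 fold change was 0.39. By genotype entry 1 was higher and 7 were lower, with a median of -0.19. By title they ran from 0.02 for Cox7a1, a cytochrome oxidase subunit, to 0.73 for Elovl3, a fatty acid elongase. Ucp1, singled out after its values were seen as the defining marker, was at 71.8 FPKM in ApoE-/- 3 and at 343 FPKM in NPRC-/-ApoE-/- 2. The transcription factors Zic1 and Lhx8 were at or near 0 throughout, with at most 0.02 and 0.24 FPKM.

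Over the 8 libraries the mean log2 CPM of the brown adipocyte markers had r = 0.84 to 0.98 with the 7 genes, 0.92 with Ppara and -0.92 with Cpt1a. Without its 2 farthest libraries these were 0.62 to 0.87, 0.60 and -0.68. The part of these cells in the levels of the 10 genes was not tested.

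**Figure D4:**
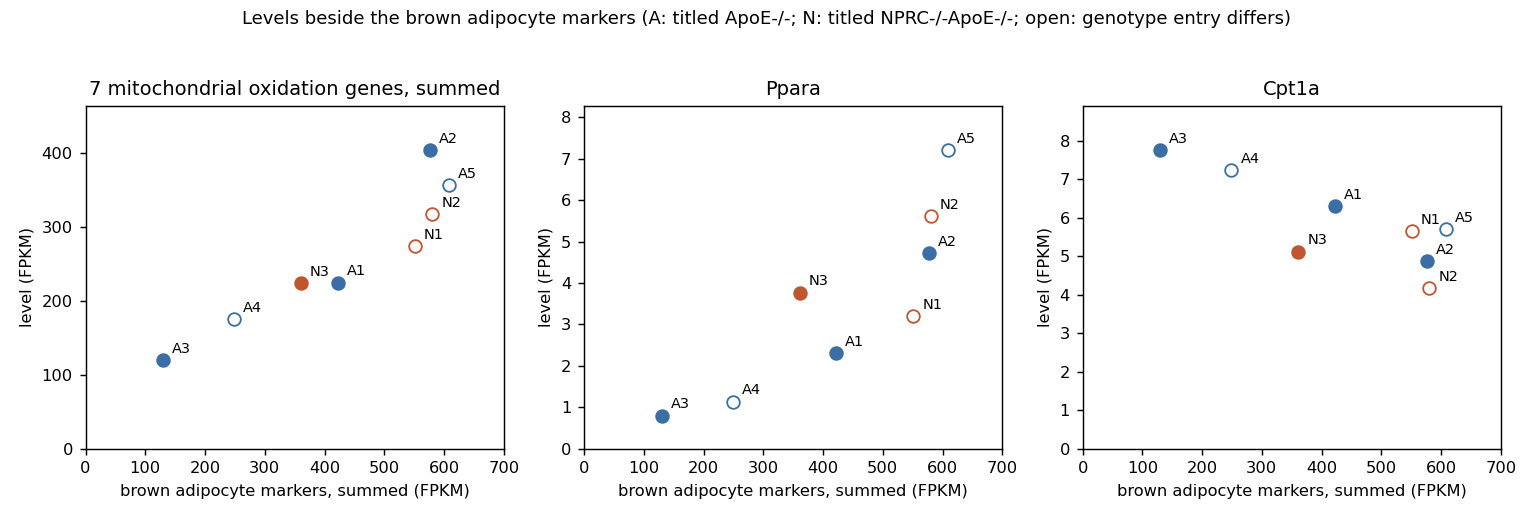
Summed FPKM of the 7 mitochondrial oxidation genes, FPKM of Ppara and FPKM of Cpt1a (vertical axes, starting at 0) against the summed FPKM of the 10 brown adipocyte markers in each library, with A for titled ApoE-/-, N for titled NPRC-/-ApoE-/- and open circles where the genotype entry differs. From ApoE-/- 3, with 129.9 FPKM of markers, to ApoE-/- 5, with 608 FPKM, the 7 genes go from 120.2 to 356 FPKM and Ppara from 0.80 to 7.20 FPKM, while Cpt1a goes from 7.75 to 5.71 FPKM.

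Markers of other cell types were read in the same way. The summed level of macrophage markers was 606 to 1841 FPKM by title in ApoE-/- and 295 to 970 FPKM in NPRC-/-ApoE-/-, and all 10 were lower by title, with a median log2 fold change of -1.03 and 4 of 10 at an unadjusted p under 0.05, beside 7.13% of all loci, though 0 after adjustment. By genotype entry the median was -0.17 and 0 had an unadjusted p under 0.05. Fcgr1, an Fc receptor, had the lowest log2 fold change of this list, at -1.46 (SE 0.53, edgeR adjusted p = 0.313), and Cd68, at a locus shared with other genes, the highest, at -0.45. The growth factor receptor Csf1r had -0.93 and the mannose receptor Mrc1, at a locus shared with Mir511, had -0.63. The macrophage list was highest in ApoE-/- 3 and 4, where Cpt1a was highest, and its r was 0.74 with Cpt1a and -0.72 to -0.40 with the 7 genes. Markers of adipocytes in general summed to 134 to 515 FPKM and to 187 to 368 FPKM, with 5 of 9 tested higher and a median log2 fold change of 0.03. Cfd, which encodes adipsin, was lowest of this list at -0.71 and Fabp4, a fatty acid carrier, highest at 0.08. Their r with the 7 genes was 0.58 to 0.83, and -0.08 to 0.38 without the 2 libraries farthest from the median of this list.

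By title, smooth muscle markers summed to 1353 to 1806 FPKM in ApoE-/- and 1753 to 2995 FPKM in NPRC-/-ApoE-/-. All 10 were higher, 9 of them at an unadjusted p under 0.05, beside 6.51% of all loci, and 0 after adjustment, with a median log2 fold change of 0.64. By genotype entry 9 were higher, 0 had an unadjusted p under 0.05 and the median was 0.17. Their r with the 7 genes was -0.04 to 0.27. Smtn, a smooth muscle cytoskeletal protein, was highest at 0.99 and Des, an intermediate filament of muscle, lowest at 0.41, with 0.66 for the calponin Cnn1 and 0.84 for Myh11, the smooth muscle myosin. Markers of the other muscles were scarce: those of the cardiomyocyte list summed to at most 9.8 FPKM, with Ryr2 highest at 0.89 and Myh6 lowest at -2.09, and those of skeletal muscle to at most 10.1 FPKM, with Acta1 highest at 1.23 and Ckm lowest at 0.87. The skeletal muscle list had r = 0.23 to 0.61 with the 7 genes, and 0.75 to 0.95 without its 2 farthest libraries. Endothelial markers summed to 90.9 to 109.5 FPKM over all libraries, and their log2 fold changes ran from -0.55 for Cldn5, a tight junction protein, to 0.11 for Kdr, a VEGF receptor. What part macrophages, fat or muscle had in the levels of the 10 genes was not tested.

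The wider pathway also gave no adjusted call. Of 61 further genes with a role in fatty acid oxidation 57 passed the filter, at 56 loci, of which 30 were higher and 26 lower by title, with a median log2 fold change of 0.02. At an unadjusted p under 0.05 were 2 higher and 2 lower, beside the 6.51% and 7.13% of all loci. By genotype entry 17 were higher, 39 lower and 0 had an unadjusted p under 0.05. The regulators ran from -0.28 for Nrip1, a corepressor, to 0.67 for Ppargc1a, a coactivator of mitochondrial genes. Ppargc1a stood at 1.95, 2.48, 0.55, 0.60 and 1.61 FPKM in ApoE-/- 1 to 5 and at 1.40, 1.82 and 3.28 FPKM in NPRC-/-ApoE-/- 1 to 3 (SE 0.50, edgeR adjusted p = 0.566). It was lowest where the 7 genes were lowest, but highest in NPRC-/-ApoE-/- 3, where they were not. Pparg, the adipocyte receptor of the Ppara family, had 0.38 (SE 0.47, edgeR adjusted p = 0.748). The study reports Ppargc1a and Pparg higher in NPRC-/-ApoE-/- aortas, as RNA by qPCR and as protein by Western blot and immunohistochemistry. Here both had higher fitted means by title, and neither was called.

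Among genes of uptake and activation, 5 were higher and 4 lower. Fabp5, a fatty acid carrier, had 18.4 to 50.4 FPKM by title in ApoE-/- and 23.8, 7.98 and 8.32 FPKM in NPRC-/-ApoE-/- 1 to 3. Its log2 fold change was -1.35 (SE 0.47, edgeR adjusted p = 0.309), and Acsl4, which activates polyunsaturated chains, had -0.68 (SE 0.24, edgeR adjusted p = 0.31). By genotype entry the values were 0.01 for Fabp5 and -0.09 for Acsl4. In both, NPRC-/-ApoE-/- 1 stood with the ApoE-/- libraries and the other 2 were the lowest of all. Both were highest in ApoE-/- 3 and 4, as was the macrophage list. Fabp3, the muscle and brown fat carrier, had the highest log2 fold change of this group, at 0.54 (SE 0.51).

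The remaining carnitine shuttle genes were all higher by title, 5 of 5, from 0.10 for the carrier Slc25a20 to 0.48 for Slc22a5, the carnitine transporter of the cell membrane. Slc22a5 was at 2.30, 2.35, 1.51, 1.67 and 2.54 FPKM in ApoE-/- 1 to 5 and at 2.85, 2.79 and 2.83 FPKM in NPRC-/-ApoE-/- 1 to 3. As in 7.41% of all loci, the titled groups did not overlap in this gene (SE 0.15, edgeR adjusted p = 0.285). By genotype entry its log2 fold change was 0.03. The 3 genes that control malonyl-CoA, the inhibitor of Cpt1a, were higher as well. Mlycd, which degrades malonyl-CoA, had 0.38 (SE 0.15, edgeR adjusted p = 0.326), and the acetyl-CoA carboxylases, which make it, had 0.38 for Acaca and 0.75 for Acacb (SE 0.34, edgeR adjusted p = 0.377). By genotype entry 1 of the 5 and 1 of the 3 were higher.

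The 11 other genes of matrix oxidation had 4 higher and 7 lower, from -0.18 for Echs1, the short-chain hydratase, to 0.24 for Acads, the short-chain dehydrogenase, whose locus also holds Rpl37rt. Of the electron transfer flavoprotein, Etfa had 0.03 and Etfb, at a locus shared with other genes, -0.16. Peroxisomal oxidation had 2 of 11 genes higher, from -0.57 for the transporter Abcd2 to 0.24 for Ehhadh, the bifunctional enzyme. Known targets of these receptors had 4 of 7 tested loci higher, from -0.61 for Ucp2 to 0.32 for Pdk4, which restrains glucose oxidation, and Fgf21, Vnn1, Cyp4a10 and Cyp4a14 did not pass the filter. The mean level of this list did not follow the 7 genes, with r = -0.10 to 0.40, but single members ran opposite ways. In ApoE-/- 3 and 4 Pdk4 was lowest, at 8.46 and 14.2 FPKM, and Ucp2 was highest, at 16.6 and 16.0 FPKM. The list level therefore says nothing of single targets.

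**Figure D5:**
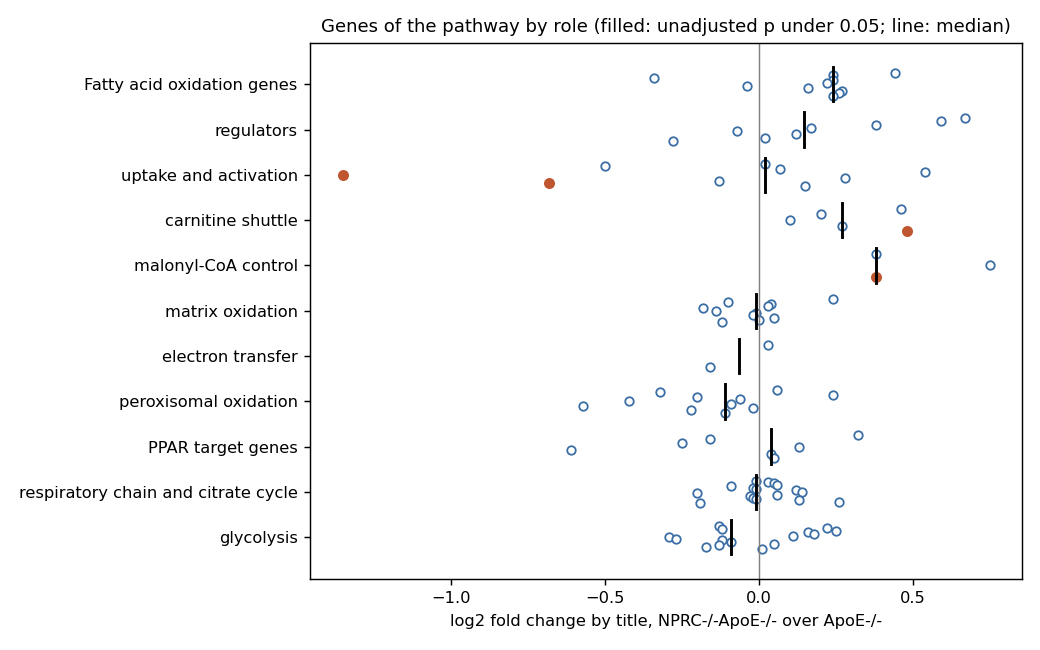
Log2 fold change by title of every tested locus in the 10 genes, the 8 groups of further pathway genes, and the 2 comparison lists, each circle a locus, filled where the unadjusted p was under 0.05, with a line at the median. Filled circles are the 2 lower genes of uptake and activation, Fabp5 and Acsl4, and the 2 higher genes Slc22a5 and Mlycd, and the medians of the groups lie between -0.11 and 0.38.

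Respiratory chain and citrate cycle genes were compared as the machinery that takes over the electrons. Of 17, 8 were higher and 9 lower by title with 0 at an unadjusted p under 0.05, a median log2 fold change of -0.01, and extremes of -0.20 for Cox5a and 0.26 for Idh3a. By title their summed level was 420 to 1098 FPKM in ApoE-/- and 586 to 785 FPKM in NPRC-/-ApoE-/-. With the 7 genes they had r = 0.75 to 0.96 over the 8 libraries, and 0.70 to 0.94 without the 2 farthest from the median of this list. The 15 glycolysis genes, with a median log2 fold change of -0.09, had r = 0.07 to 0.41, and extremes of -0.29 for Tpi1, at a locus shared with Usp5, and 0.25 for Pfkl. These differences in likeness were not tested.

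The promoters were read because Ppara and the 7 genes moved together and Cpt1a against them. The motif that these receptors are known to bind is a direct repeat of AGGTCA, 1 base apart. Its single unit, and that unit with an extension, were searched as well and are not taken here as sites of these receptors. All 10 genes matched a RefSeq window (GRCm38.p6) of 250 bases before to 50 after the start. The full element, AGGTCANAGGTCA on either strand, was in 0 of the 10 windows and in 0.0396% of 32851 promoters. Its single repeat unit AGGTCA, which is part of the other 2 motifs, was in 3 of the 10, beside 16.3% of all promoters, and TNAAGGTCA, the unit with an extension, in 0 of the 10, beside 1.28%. The 3 windows are shown with the unit, or its reverse complement, in capitals: Cpt1a from chr19:3323051-3323350 (plus strand), at -94 to -89 from the start, Acadm from chr3:153944594-153944893 (minus strand), at -249 to -244, and Acadvl from chr11:70015379-70015678 (minus strand), at -87 to -82.
Cpt1a: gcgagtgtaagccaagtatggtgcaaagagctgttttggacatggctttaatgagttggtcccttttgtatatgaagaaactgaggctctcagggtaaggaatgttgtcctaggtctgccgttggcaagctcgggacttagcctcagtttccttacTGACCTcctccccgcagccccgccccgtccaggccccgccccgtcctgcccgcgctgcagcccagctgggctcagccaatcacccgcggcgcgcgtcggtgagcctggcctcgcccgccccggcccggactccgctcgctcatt
Acadm: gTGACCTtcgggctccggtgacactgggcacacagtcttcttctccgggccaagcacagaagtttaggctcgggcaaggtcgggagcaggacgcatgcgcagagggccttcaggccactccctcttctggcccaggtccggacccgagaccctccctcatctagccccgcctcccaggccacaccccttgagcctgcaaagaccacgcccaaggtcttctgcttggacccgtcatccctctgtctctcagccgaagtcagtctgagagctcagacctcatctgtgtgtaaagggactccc
Acadvl: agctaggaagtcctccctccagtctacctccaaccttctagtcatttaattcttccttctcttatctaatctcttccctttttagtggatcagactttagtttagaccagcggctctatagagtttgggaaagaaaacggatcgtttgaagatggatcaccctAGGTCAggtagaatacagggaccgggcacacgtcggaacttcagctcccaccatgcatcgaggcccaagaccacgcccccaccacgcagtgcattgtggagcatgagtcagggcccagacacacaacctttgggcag
The unit was thus present in a gene that ran against the others and in 2 that ran with them. A match is a string of letters in this window and no evidence of binding, and its absence elsewhere says nothing of sites farther away.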

How the data were processed

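Libraries were made from total RNA of entire aortas. The submitters' processing notes name cutadapt 1.9, FastQC and GRCm38, and the study's methods name HISAT2 and StringTie, whose versions are not given in the sources used here. The authors deposited, for each of 48607 loci, raw counts and FPKM values per library. The FPKM, made by the authors, are per transcript length and mapped fragments, and 0 columns of per-sample values had no sample. All 13465 Ensembl identifiers of the table overlapped their gene in GENCODE release 21 (GRCm38).

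A locus entered the tests when 3 or more libraries had 1 FPKM or more (20506 loci). The deposited counts were analysed with edgeR 4.0.16 in R 4.3.3, using TMM scaling, the quasi-likelihood test and Benjamini-Hochberg adjustment over all loci. The biological coefficient of variation was 0.327. Log2 CPM used a prior count of 2. Alternatives were DESeq2 1.42.0, limma 3.58.1 on log2(FPKM + 1) and log2(FPKM + 0.1), other scalings and filters, the genotype entry, a replicate block and leaving out each library. Ratios were compared with scipy 1.17.1. Scripts were tested on simulated data. No 2 libraries were duplicates (mean chi-square per locus 104.2 or more).

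The 10 genes and the lists were chosen with earlier results of these data known. Named beside the 10 were the largest and smallest log2 fold change by title of each list, genes at an unadjusted p under 0.05 (up to 4 a list), the 5 most like genes, Npr3, Ppargc1a and Pparg. Where a list had more such genes, those with the smallest p were named and the rest counted. Genes outside that rule (Acta2, Ucp1, Dio2, Zic1, Lhx8, Cpt1b, Acaca) were named after their values were seen, and the ratios were chosen then too.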

Additional observations from a re-analysis of the deposited data

How the results depend on the processing

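Under 18 alternatives the 10 genes gave 178 log2 fold changes, of which 163 kept their sign, 15 changed it and 0 passed an adjusted p of 0.05, where over all loci DESeq2 called 627, edgeR without NPRC-/-ApoE-/- 1 called 45, and each of the other alternatives at most 2. By genotype entry the values turned to -0.13 for Acadvl and Hadhb, -0.03 for Etfdh and Hadha, 0.09 for Cpt1a and 0.00 for Cpt2. Acadl, near 0 to begin with, turned to 0.03 at a mean of at least 5 FPKM, to 0.06 and 0.07 with limma on log2(FPKM + 1) and log2(FPKM + 0.1), to 0.14 with the replicate block, and ranged from -0.20 to 0.23 as each library was left out. That range was -0.07 to 0.45 for Cpt2 and -0.02 to 0.40 for Ppard, negative only without NPRC-/-ApoE-/- 2 and NPRC-/-ApoE-/- 3. At a mean of at least 5 FPKM Ppara and Ppard were not tested. The median over the 10 genes was 0.24, 0.09 to 0.39 with a library left out, and lowest without ApoE-/- 3.

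Replicate numbers 1 to 3 occur under both titles. Same-numbered libraries did not deviate together (r = -0.31 to 0.01, against -0.16 to 0.23 for others). So few pairs cannot show whether they share more than a number. With the replicate block, over 6 libraries, 1 of the 10 genes was higher at an unadjusted p under 0.05 instead of 0: Cpt2, at 0.43 (SE 0.16, edgeR adjusted p = 0.562). The median was then 0.39, and 0.28 in the same 6 libraries without it. The causes of these shifts were not tested. The intervals of the 7 mitochondrial genes by title leave room for changes from -0.84 to 1.02.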
